A study of Mus musculus with 18 samples.

Results

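The guanylate-binding proteins (GBPs) and the immunity-related GTPases (IRGs) are large GTP-hydrolysing proteins that many cells make after exposure to interferon. The 10 members described here were chosen by name: Gbp2, Gbp3, Gbp4, Gbp5, Gbp6, Gbp7 and Gbp9 from the first family and Irgm1, Igtp and Iigp1 from the second. All 10 were found among the 53379 genes of the deposited count table. Of the 10, 8 had enough reads to be tested, together with 11569 genes in all. Gbp6, with 3 counts over all 18 libraries, and Iigp1, with 2, did not pass the filter on low counts.

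RNA was sequenced from neutrophils sorted by flow cytometry from the bone marrow of mice aged 10 weeks. The mice were wild type (WT) or carried the genotype given as CIS-/-, which lacks the cytokine-inducible SH2 protein encoded by Cish, an inhibitor of cytokine receptor signalling. For each genotype the cells were lysed right after sorting (unstimulated), or were kept for 4 h or 24 h in serum-containing medium with granulocyte-macrophage colony-stimulating factor (GM-CSF) at 100 ng/mL. This gave 6 groups of 3 libraries. One field of the labels gives 42 h where the sample titles and the extraction text give 24 h, and 24 h is used here. All cultured cells received GM-CSF, so its effect and that of time in culture cannot be told apart. The labels do not say whether the 3 libraries of a group came from separate mice, nor how the CIS-/- allele was made, and p-values measure only the spread between libraries.

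GBPs assemble on the membranes of vacuoles that hold bacteria or protozoa, and on bacteria in the cytosol, and help to expose the microbe to autophagy proteins and inflammasomes. IRGs fall into effector proteins such as Iigp1, which coat and break such vacuoles, and regulatory proteins such as Irgm1 and Igtp, which sit on the cell's own membranes and hold the effectors in check. Interferon-gamma switches many of these genes on through GAS elements in their promoters, and type I interferons through interferon-stimulated response elements.

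The libraries held between 12170524 and 22539858 counts, so that 3 counts stood for 0.104 to 0.276 CPM, the level of a gene relative to the total of its library. Library totals were adjusted with TMM factors, which allow for differences in composition between libraries. Cish, the gene targeted in the mutant, went against its label in unstimulated cells, where it stood at 6.50 ± 0.019 CPM (SD, n = 3) in WT and 18.7 ± 1.1 CPM in the other genotype. It was lower in the CIS-/- libraries at 4 h (240 ± 3.2 against 1149 ± 9.3 CPM) and at 24 h (238 ± 5.1 against 1060 ± 7.3 CPM). The genotype is therefore given as labelled throughout. Replicate 1 of CIS-/- at 24 h stood apart from the rest of its group over all genes, and the 24 h differences between genotypes are given with and without it. All 9 neutrophil markers reached 1 CPM in every group. All 5 natural killer cell markers and all 4 markers of plasmacytoid and dendritic cells were under 1 CPM in every group. Markers of other cell types were present in unstimulated WT libraries. The 8 monocyte and macrophage markers summed to 764 to 803 CPM, with 3 at 1 CPM or more, and the 5 B cell markers to 189 to 194 CPM, with 1. The summed eosinophil, basophil and mast cell markers stood at 32.7 to 34.3 CPM, the erythroid ones at 32.1 to 34.5 and the T cell ones at 5.99 to 8.33. In these bulk samples, fewer cells of a type and less RNA per cell cannot be told apart.

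The genes Gbp5, Gbp7, Gbp3 and Gbp2 form a cluster on the forward strand of chromosome 3 in GRCm38: Gbp5 at chr3:142493978-142522344, Gbp7 at chr3:142530342-142550149, Gbp3 at chr3:142560026-142573209 and Gbp2 at chr3:142620602-142638008. The other GBP members lie on the reverse strand of chromosome 5, with Gbp9 at chr5:105077630-105139539, Gbp4 at chr5:105115767-105139586 and Gbp6 at chr5:105270702-105293698. Irgm1 is on the reverse strand of chromosome 11 at chr11:48861968-48871683, and Igtp on its forward strand at chr11:58199556-58207591. The count table has 1 row per gene, so isoforms are not told apart. The position of Iigp1 is not given here.

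RefSeq promoter sequences (GRCm38.p6, 250 bases before to 50 bases after the start) were matched to 6 of the 10 members by symbol. The 6 are shown because they are the members with such an entry, and Gbp4, Gbp6, Gbp9 and Iigp1 had none. Each stretch is printed 5′ to 3′ on the strand of its gene, and capitals mark matches on either strand to GAAA, any 2 bases and GAAA, the core of an interferon-stimulated response element, or to TTCNNNGAA, the core of a GAS element.
Gbp2, chr3:142620593-142620622: aactcttttagTTTCACTTTCactgtctta
Gbp3, chr3:142559944-142560025: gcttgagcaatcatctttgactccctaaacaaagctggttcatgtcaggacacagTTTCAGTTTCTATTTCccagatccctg
Gbp5, chr3:142496754-142496899: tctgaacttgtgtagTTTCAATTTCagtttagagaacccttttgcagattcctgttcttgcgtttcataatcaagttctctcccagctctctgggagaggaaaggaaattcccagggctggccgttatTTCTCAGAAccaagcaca
Gbp7, chr3:142530216-142530335: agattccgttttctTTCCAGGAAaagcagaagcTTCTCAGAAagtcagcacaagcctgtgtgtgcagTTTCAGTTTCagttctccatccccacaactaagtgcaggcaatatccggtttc
Irgm1, chr11:48871428-48871457: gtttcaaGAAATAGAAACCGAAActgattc
Igtp, chr11:58199456-58199555: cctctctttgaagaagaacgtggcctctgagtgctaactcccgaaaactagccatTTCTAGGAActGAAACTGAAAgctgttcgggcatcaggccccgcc

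The response-element core was present in the promoter of 6 of these 6 genes, against 3.99% of the 27025 genes with a RefSeq promoter of this length. Gbp3 has another RefSeq promoter entry, from a start further downstream, which held no match to either core. Counted from the RefSeq start, its first base was at −59 in Gbp2, −165 in Gbp5, −53 in Gbp7 and −34 in Igtp. In Gbp3 (−45 and −39) and Irgm1 (−30 and −24) a pair of overlapping matches formed a longer run with 3 copies of GAAA, each 2 bases apart, which 0.133% of all genes with a promoter entry held. TTCNNNGAA was found in Gbp5 (−245, upstream of the printed stretch, and −52), Gbp7 (−106 and −87) and Igtp (−45), against 9.55% of all genes with an entry. Of 17 other genes for immunity GTPases listed (GBPs, IRGs, Mx1, Mx2 and the very large GTPase gene Gvin1), 8 had a promoter entry, and 6 of the 8 held the response-element core. The RefSeq start is not the only annotated one. In the GENCODE M21 annotation, exon bases begin at −61 in Gbp2 and already at −250 in Irgm1, so the matches in these genes lie downstream of a GENCODE start. The Gbp5 gene also starts upstream of its whole window. A match describes letters in the RefSeq window and does not show that a factor binds there.

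**Figure D1:**
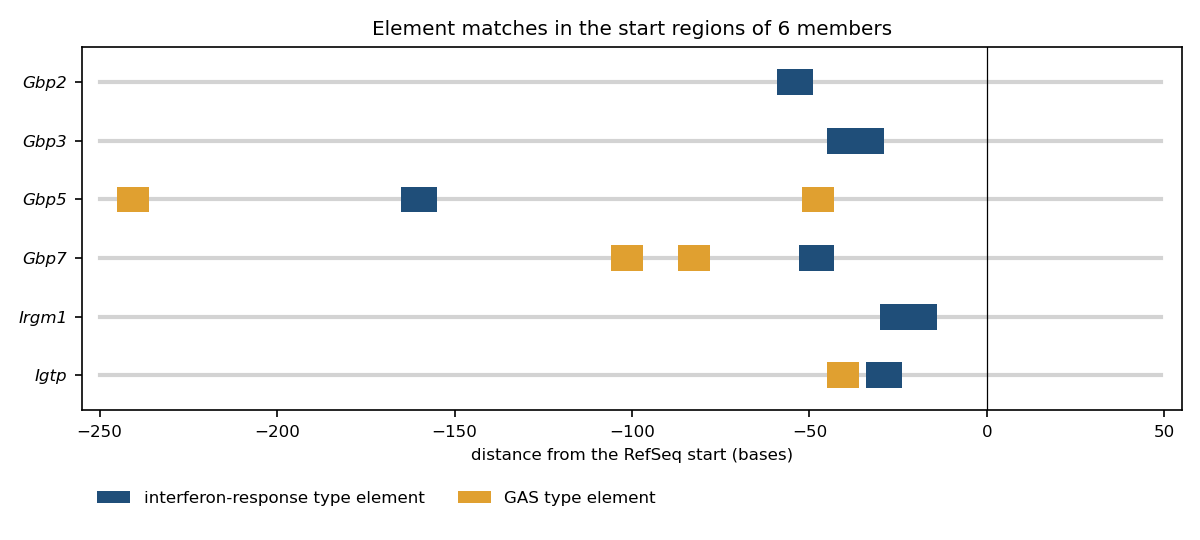
Positions of the matches to the interferon-response type and GAS type cores in the promoters of 6 members, as distance in bases from the RefSeq start (x axis), 1 line per gene. Each of the 6 lines carries at least 1 match of the first type, and Gbp5, Gbp7 and Igtp also carry the second.

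In unstimulated WT neutrophils, Gbp2, Igtp and Gbp7 were the most abundant members per exon length. Expressed as CPM per kilobase of exon (RPKM), Gbp2 stood at 12.6 ± 0.42, Igtp at 10.7 ± 0.67 and Gbp7 at 6.67 ± 0.21 (SD, n = 3). Gbp9 (4.21 ± 0.47) and Irgm1 (3.87 ± 0.27) followed and overlapped each other. Gbp3 (0.232) and Gbp5 (0.135) were far lower, and Gbp4 rested on 3 counts in the 3 libraries together. The unstimulated CIS-/- libraries had the same leading genes, with Gbp2 at 13.1, Igtp at 9.76 and Gbp7 at 5.81 RPKM. The 10 members together made up 137 ± 0.96 CPM in unstimulated WT and 136 ± 2.7 CPM in unstimulated CIS-/- libraries.

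After 4 h in GM-CSF the 8 tested members rose in WT, by factors that ran from 1.42 for Gbp9 to 180 for Gbp5, and by 24 h the same 8 had fallen again. The summed level of the members went from 137 to 2505 ± 31 CPM and then to 106 ± 2.8 CPM in WT. In CIS-/- libraries it went from 136 to 2309 ± 46 and then to 50.8 ± 3.2 CPM. At 4 h, 8 of the 8 tested members were called higher in WT (edgeR's quasi-likelihood test, adjusted p below 0.05 over all genes), where 38.1% of all genes tested were called higher and 38.2% lower. Their median log2 change was 4.40, against −0.02 over all genes. In CIS-/- libraries 7 of 8 were called higher, where 37.9% of all genes were called higher and 39.1% lower, with a median of 3.90. Gbp4 passed the filter on low counts through the 4 h libraries, so its call follows in part from that filter. The neutrophil markers also moved with time. Their summed level was 102540 to 103880 CPM in unstimulated WT libraries, 62971 to 63920 CPM at 4 h and 26092 to 27497 CPM at 24 h, with 7 of 9 called lower and 2 higher at 4 h. The part of this in the members' changes was not tested.

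**Figure D2:**
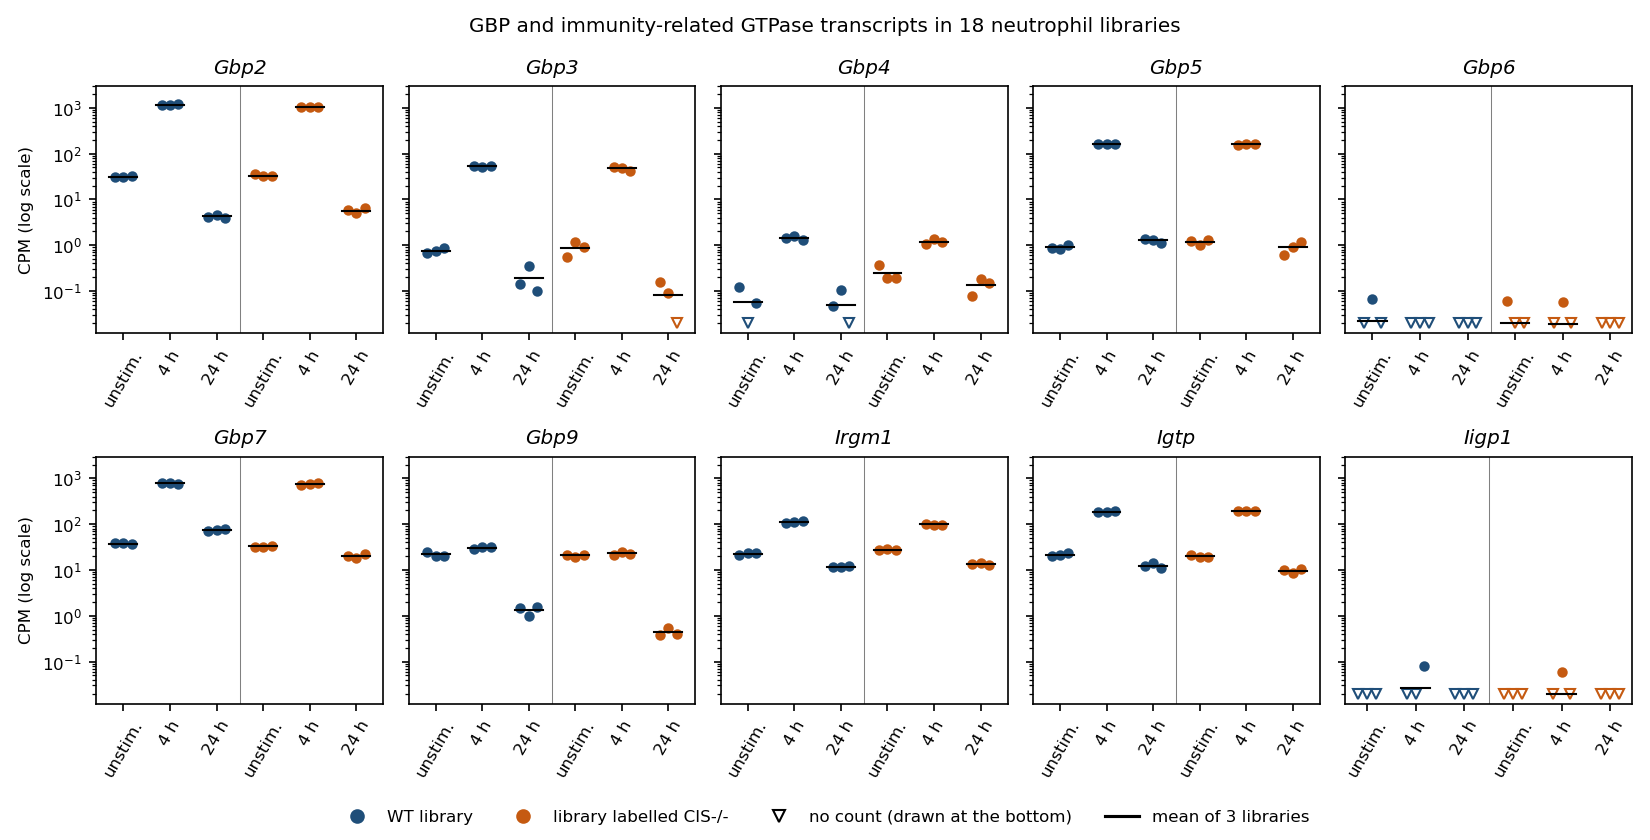
CPM (log axis) of the 10 members in each of the 18 libraries, by genotype and time; each point is 1 library and a triangle marks a library with no count. In the 8 tested members the 4 h libraries sit highest, although for Gbp9 the 4 h and unstimulated CIS-/- points lie close (21.7 to 24.8 against 19.3 to 21.5 CPM).

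Gbp2, a lipid-anchored GBP that is recruited to the vacuole of Toxoplasma, was the most abundant member at 4 h. Its WT libraries held 31.2, 30.9 and 32.9 CPM unstimulated, 1142, 1165 and 1212 CPM at 4 h, and 4.24, 4.49 and 4.02 CPM at 24 h. The groups were widely separated, and the 24 h libraries lay below the unstimulated ones. The rise to 4 h was 37.0-fold (95% confidence interval 34.8 to 39.3; log2 5.21 ± 0.04 SE, edgeR's quasi-likelihood adjusted p = 7.33e-67). The fall from 4 h to 24 h was 274-fold (log2 −8.10 ± 0.06), and it left Gbp2 7.41-fold below its unstimulated level (log2 −2.89 ± 0.07). In RPKM, Gbp2 made up 32.8% of the members' summed level in unstimulated WT, 60.9% at 4 h and 7.15% at 24 h.

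Gbp5, a GBP known to promote assembly of the NLRP3 inflammasome, rose by the largest factor among the members that were tested. The WT libraries held 0.856, 0.807 and 1.02 CPM unstimulated, 160.5, 163.7 and 165.9 CPM at 4 h, and 1.40, 1.29 and 1.13 CPM at 24 h. All 4 h libraries were far above the rest, and the 24 h and unstimulated libraries lay near each other. The rise was 180-fold (95% confidence interval 159 to 203; log2 7.49 ± 0.09) and the fall to 24 h was 127-fold (log2 −6.99 ± 0.08). At 24 h Gbp5 was not called different from its unstimulated level (log2 0.49 ± 0.24, edgeR's quasi-likelihood adjusted p = 0.0686). With library sizes alone in place of TMM factors that difference was called (log2 0.80, adjusted p = 0.00235).

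Gbp7, which has been linked to delivery of oxidase and autophagy components to phagosomes, was the member that stayed highest in WT at 24 h. Its WT libraries held 38.1, 38.2 and 36.1 CPM unstimulated, 794.6, 793.2 and 764.8 CPM at 4 h, and 71.0, 74.0 and 77.5 CPM at 24 h. Each time point was separate from the others, and the 24 h libraries lay above the unstimulated ones. The rise was 4.39 ± 0.05 on the log2 scale, and the fall was 10.6-fold (log2 −3.40 ± 0.04). At 24 h it remained 1.98-fold above the unstimulated level (log2 0.99 ± 0.05, edgeR's quasi-likelihood adjusted p = 1.16e-26). An overlapping gene model, Gm43802, shares 637 bases (11.3%) of Gbp7's exons and had no count in any library. Of Gbp7's 50-base stretches, 12.8% also occur in other genes, so reads from them could be lost in counting. The lack of counts for Gm43802 does not show that Gbp7 was unaffected.

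Gbp3, the remaining member of the chromosome 3 cluster, held 0.673, 0.739 and 0.859 CPM in unstimulated WT, 54.5, 51.9 and 54.7 CPM at 4 h, and 0.140, 0.348 and 0.0981 CPM at 24 h. The 4 h libraries again stood apart, and the 24 h libraries rested on 15 counts in all. The rise was 69.7-fold (log2 6.12 ± 0.14) and the fall 244-fold (log2 −7.93 ± 0.15).

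Of the chromosome 5 members, Gbp9 was the one with a level well above the floor before stimulation. It held 24.6, 20.4 and 20.3 CPM in unstimulated WT, 29.3, 31.6 and 31.4 CPM at 4 h, and 1.44, 1.01 and 1.52 CPM at 24 h. Its 4 h libraries lay only a little above the unstimulated ones without overlap (1.42-fold, 95% confidence interval 1.28 to 1.57; log2 0.50 ± 0.08, edgeR's quasi-likelihood adjusted p = 3.39e-08). The fall from 4 h to 24 h was 23.7-fold and left Gbp9 16.8-fold below the unstimulated level (log2 −4.07 ± 0.12), the deepest fall below the start among the 8 tested members in WT. Gbp4 was seen at 2, 0 and 1 counts in unstimulated WT libraries, 19, 23 and 16 at 4 h, and 1, 3 and 0 at 24 h. Set against 3 unstimulated counts, its rise was 23.9-fold by counts, with a 95% counting interval of 7.79 to 119. Gbp6 gave 1 count in each of 3 libraries, 1 unstimulated in each genotype and 1 at 4 h in a CIS-/- library, so no change was detectable at this depth. Of Gbp6's 50-base stretches, 59.7% also occur in other genes, so reads from it could be lost in counting.

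Among the IRGs, Igtp and Irgm1, both regulatory members, rose at 4 h by smaller factors than the GBPs of chromosome 3 in WT. Igtp held 20.3, 21.4 and 23.0 CPM in unstimulated WT, 186.9, 182.9 and 192.9 CPM at 4 h, and 12.2, 14.0 and 11.1 CPM at 24 h. This was a rise of 8.67-fold (log2 3.12 ± 0.06) and a fall of 14.9-fold (log2 −3.89 ± 0.06). The 24 h libraries lay below all unstimulated ones (log2 −0.78 ± 0.07). Igtp shares 162 exon bases (8.01%) with its neighbour Irgm2. For the counts of both genes summed, the change from unstimulated to 24 h was −0.08 (edgeR's quasi-likelihood adjusted p = 0.0652) and was not called. Irgm2 was the more abundant gene in that sum, so the value is not one for Igtp alone.

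Irgm1, known for its part in autophagy and resistance to mycobacteria, held 20.7, 23.3 and 23.6 CPM in unstimulated WT, 107.3, 110.1 and 115.2 CPM at 4 h, and 11.8, 11.8 and 11.9 CPM at 24 h. The 3 time points did not overlap. It rose 4.92-fold (log2 2.30 ± 0.05), fell 9.34-fold (log2 −3.22 ± 0.06), and ended below its start (log2 −0.93 ± 0.07). The effector IRG Iigp1 gave 1 count in a WT library and 1 in a CIS-/- library, both at 4 h, and no change was detectable at this depth.

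In CIS-/- libraries the same members led the rise. Gbp2 held 35.2, 31.8 and 31.8 CPM unstimulated, and its rise at 4 h was 31.5-fold (log2 4.98 ± 0.04). Gbp5 went from 1.22, 1.01 and 1.29 CPM to 156.8, 164.6 and 163.5 CPM at 4 h, a rise of 137-fold (log2 7.10 ± 0.09), and Gbp3 from 0.548, 1.20 and 0.903 CPM to 50.8, 49.5 and 42.7 CPM, 53.8-fold. In these 3 genes every 4 h library lay far above every unstimulated one. Gbp7 reached 716.8, 736.7 and 788.1 CPM (22.9-fold) and Igtp, from 20.9, 19.3 and 19.0 CPM, reached 189.1, 196.6 and 193.0 CPM (9.77-fold), while Irgm1 rose 3.57-fold. Gbp9 was the member not called at 4 h in CIS-/- libraries (21.2, 19.3 and 21.5 against 21.7, 24.8 and 22.1 CPM; log2 0.16 ± 0.08, edgeR's quasi-likelihood adjusted p = 0.0739). It was called without replicate 1 of CIS-/- at 4 h (adjusted p = 0.0459), and also when its counts were summed with those of Gbp4 and Gbp8, whose exons overlap its own (log2 0.24, adjusted p = 0.00499). The counts of Gbp4 in CIS-/- libraries were 6, 3 and 3 before stimulation, 12, 24 and 14 after 4 h, and 1, 2 and 3 after 24 h.

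The falls in CIS-/- libraries from 4 h to 24 h were 177-fold for Gbp2, 171-fold for Gbp5, 52.1-fold for Gbp9, 36.0-fold for Gbp7, 19.6-fold for Igtp and 7.32-fold for Irgm1. Gbp3 was down to 2, 1 and 0 counts at 24 h, and its fall was 698.5-fold by counts, with a 95% counting interval of 239 to 3390. At 24 h Gbp9 lay 46.8-fold below its unstimulated level in CIS-/- libraries and Gbp2 5.62-fold, whereas Irgm1 (2.05-fold), Igtp (2.01-fold) and Gbp7 (1.58-fold) lay less far below theirs.

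From 4 h to 24 h, 8 of 8 tested members were called lower in WT and 8 of 8 in CIS-/- libraries, where 39.6% and 37.9% of all genes were called lower, and 35.7% and 37.8% higher. The median log2 change was −4.53 in WT and −5.44 in CIS-/-, against −0.04 and −0.01 over all genes. Gbp4, which passed the filter on low counts through the 4 h libraries, is among these calls, and its fall follows in part from that filter. Against unstimulated cells, 5 members were lower and 1, Gbp7, was higher at 24 h in WT, where 37.7% of all genes were called lower and 40.7% higher. In CIS-/- libraries 6 were lower, Gbp7 among them, and Gbp4 and Gbp5 were not called, where 42% of all genes were called lower and 42.1% higher.

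**Figure D3:**
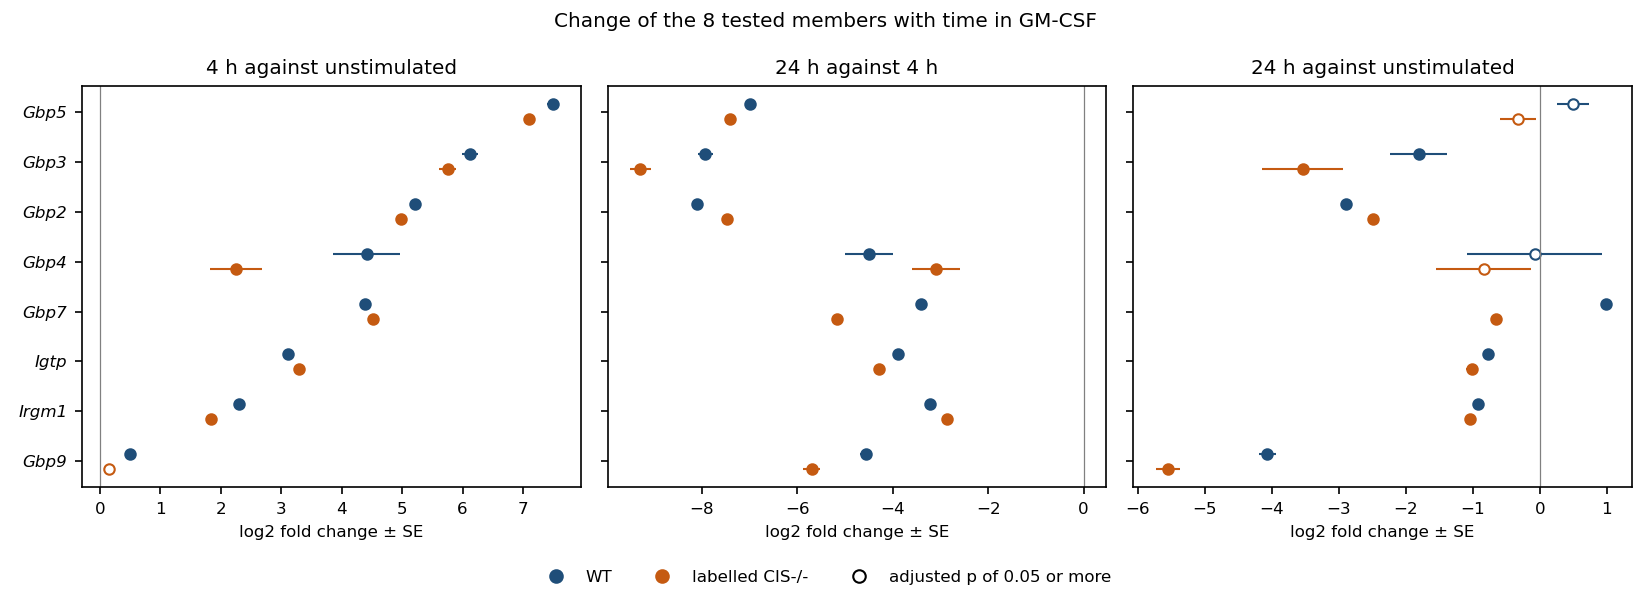
Change in log2 expression with its standard error for the 8 tested members, in WT and CIS-/- libraries, for 4 h against unstimulated, 24 h against 4 h and 24 h against unstimulated; open points have an adjusted p of 0.05 or more. The first panel lies to the right of 0 and the second to the left, while in the third Gbp7 lies on opposite sides of 0 in the genotypes (0.99 in WT, −0.65 in CIS-/-).

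The order of the levels changed with time. At 4 h in WT it ran, in RPKM, from Gbp2 (466 ± 14) through Gbp7 (140 ± 3.0), Igtp (92.7 ± 2.5), Gbp5 (24.6 ± 0.41), Irgm1 (19.1 ± 0.69), Gbp3 (16.5 ± 0.47) and Gbp9 (5.95 ± 0.25) to Gbp4 (0.191 ± 0.019), and no neighbours overlapped. At 24 h in WT, Gbp7 led with 13.2 ± 0.58 RPKM, followed by Igtp (6.16 ± 0.73), Irgm1 (2.04 ± 0.009) and Gbp2 (1.69 ± 0.09). In CIS-/- libraries at 24 h, Igtp (4.77 ± 0.54) stood above Gbp7 (3.63 ± 0.40), while Irgm1 (2.33 ± 0.14) and Gbp2 (2.27 ± 0.30) overlapped. Gbp7 made up 56.0% of the members' summed RPKM in WT at 24 h and 27.3% in CIS-/-.

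The genotypes were compared as labelled, at each time and in their change with time in culture with GM-CSF. In unstimulated cells 2 of the 8 tested members were called different. Irgm1 was 1.22-fold higher in CIS-/- libraries (27.3, 28.5 and 26.8 against 20.7, 23.3 and 23.6 CPM; log2 0.29 ± 0.06, edgeR's quasi-likelihood adjusted p = 0.00043). Gbp7 was lower (32.1, 32.3 and 33.5 against 38.1, 38.2 and 36.1 CPM; log2 −0.20 ± 0.06, adjusted p = 0.00817). Neither pair of groups overlapped. Gbp4 had the largest fitted difference and was not called: it rested on 12 counts in CIS-/- against 3 in WT, a ratio of 4.18 by counts with a 95% counting interval of 1.13 to 23.1 (edgeR's quasi-likelihood adjusted p = 0.0792, limma-voom adjusted p = 0.0407). The calls were for 1 member higher and 1 lower of 8, where 12.9% of all genes were called higher and 9.41% lower.

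At 4 h, 3 of 8 members were called lower in CIS-/- libraries, where 9.3% of all genes were called lower and 8% higher. Gbp2 held 1019, 1056 and 1036 CPM in CIS-/- against 1142, 1165 and 1212 CPM in WT, a ratio of 0.884 (log2 −0.18 ± 0.03). Gbp9 held 21.7, 24.8 and 22.1 against 29.3, 31.6 and 31.4 CPM, a ratio of 0.748 (log2 −0.42 ± 0.08). Irgm1 held 101.0, 96.6 and 97.5 against 107.3, 110.1 and 115.2 CPM, a ratio of 0.887 (log2 −0.17 ± 0.05). In each of these 3 genes all CIS-/- libraries lay below all WT libraries. Gbp5, Gbp7 and Igtp differed by −0.01, −0.07 and 0.04 on the log2 scale at 4 h and were not called, although Gbp7 was without replicate 3 of CIS-/- at 4 h (log2 −0.11, adjusted p = 0.0458). The rise from unstimulated to 4 h differed between genotypes for the same 3 genes by the test of the interaction: by −0.46 ± 0.08 for Irgm1, −0.35 ± 0.11 for Gbp9 and −0.23 ± 0.06 for Gbp2 on the log2 scale. Of all genes, 10.4% had a negative call of this kind and 5.32% a positive one. The Gbp9 call was lost without any one of 7 libraries: replicates 2 and 3 of unstimulated WT, 1 and 3 of unstimulated CIS-/-, 2 of WT at 4 h, or 1 and 3 of CIS-/- at 4 h (adjusted p between 0.0565 and 0.097). It was lost with DESeq2 as well (adjusted p = 0.062), and the Gbp2 call without replicate 1 of unstimulated CIS-/- (log2 −0.17, adjusted p = 0.0974).

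At 24 h the members differed more between genotypes and in both directions. Gbp7 held 19.8, 18.5 and 22.8 CPM in CIS-/- libraries against 71.0, 74.0 and 77.5 CPM in WT. Each CIS-/- library lay below every WT library, and the difference was 3.58-fold (95% confidence interval 3.31 to 3.86; log2 −1.84 ± 0.06, edgeR's quasi-likelihood adjusted p = 1.5e-37). Gbp9 held 0.388, 0.552 and 0.400 against 1.44, 1.01 and 1.52 CPM, 2.94-fold lower (95% confidence interval 1.88 to 4.60). Igtp held 9.84, 8.46 and 10.6 against 12.2, 14.0 and 11.1 CPM, 1.28-fold lower (log2 −0.36 ± 0.09). The summed counts of Igtp and Irgm2 differed by −0.90, a value carried mostly by Irgm2, the more abundant gene. Replicate 1 of CIS-/- at 24 h stood apart from replicates 2 and 3 in counts over all genes, with a chi-square per degree of freedom of 6.82 and 8.46 against 2.40 between the other two. Without it the differences were −1.80 for Gbp7, −1.49 for Gbp9, −0.36 for Igtp and 0.47 for Gbp2, each still called, and 0.17 for Irgm1, which was not called (adjusted p = 0.0942).

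Gbp2 and Irgm1 stood on the other side at 24 h. Gbp2 held 5.74, 4.97 and 6.46 CPM in CIS-/- against 4.24, 4.49 and 4.02 CPM in WT (1.37-fold higher, log2 0.46 ± 0.11), and Irgm1 held 13.7, 14.3 and 12.7 against 11.8, 11.8 and 11.9 CPM (1.13-fold higher, log2 0.18 ± 0.08, edgeR's quasi-likelihood adjusted p = 0.0395). Both directions turned when libraries were scaled by size alone, to −0.08 for Gbp2 (not called) and −0.35 for Irgm1. That scaling moved the median of all genes at 24 h from −0.02 to −0.55. A change of scaling shifts all genes by about the same amount, so a gene's place relative to that median cannot decide between the scalings. The Irgm1 call was also lost without any one of 4 libraries, replicate 1 or 2 of either genotype at 24 h (adjusted p between 0.0501 and 0.124). Gbp3 (3 counts in CIS-/- against 15 in WT), Gbp4 and Gbp5 (0.620, 0.920 and 1.15 against 1.40, 1.29 and 1.13 CPM) overlapped between genotypes and were not called. Gbp3 was called without replicate 3 of WT (log2 −1.80, adjusted p = 0.04) or replicate 1 of CIS-/- (−2.46, adjusted p = 0.03), and Gbp5 without replicate 3 of CIS-/- (−0.75, adjusted p = 0.046).

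At 24 h, then, 2 of 8 members were called higher and 3 lower in CIS-/- libraries, where 38.2% of all genes were called higher and 38.1% lower. The share of members called is close to that background. By the interaction test the change from 4 h to 24 h differed between genotypes for 5 members: by −1.77 ± 0.07 for Gbp7, −1.14 ± 0.35 for Gbp9, −0.40 ± 0.10 for Igtp, 0.63 ± 0.12 for Gbp2 and 0.35 ± 0.09 for Irgm1 (log2). Of all genes, 32.1% had a negative call of this kind and 33.9% a positive one. For Igtp summed with the more abundant Irgm2 the value was −0.96, and for Gbp9 summed with Gbp4 and Gbp8 it was −0.67. With library sizes alone the Gbp2 value was 0.11 and not called, and the Irgm1 value turned to −0.17.

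Over the whole course from unstimulated to 24 h, the differences in change were −1.64 ± 0.08 for Gbp7, −1.48 ± 0.34 for Gbp9 and 0.40 ± 0.12 for Gbp2 (log2), where 33.1% of all genes had a negative and 31.6% a positive call. The Gbp2 value turned to −0.092 with library sizes alone, and was not called without replicate 3 of CIS-/- at 24 h (0.28, adjusted p = 0.13). Gbp3, Gbp5 and Igtp, not called over this course (adjusted p = 0.0751, 0.0557 and 0.0809), were each called when single libraries were left out. For Gbp3 these were replicate 1 of unstimulated CIS-/-, 3 of WT at 24 h and 1 of CIS-/- at 24 h (adjusted p between 0.0294 and 0.0412). For Gbp5 they were replicate 3 of unstimulated WT, 2 of unstimulated CIS-/-, and 3 of either genotype at 24 h (0.0233 to 0.0475), and for Igtp replicate 3 of unstimulated WT and 3 of either genotype at 24 h (0.0281 to 0.0426). The Igtp value was −0.23, and −0.72 with library sizes alone (edgeR's quasi-likelihood adjusted p = 1.61e-07). For the summed counts of Igtp and the more abundant Irgm2 the value was −0.71 (adjusted p = 5.73e-15).

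Markers of other cell types also differed between genotypes. The 8 monocyte and macrophage markers summed to 547 to 568 CPM in WT and 1022 to 1061 CPM in CIS-/- libraries at 24 h, with Cx3cr1 under 1 CPM in every group. The 4 erythroid markers summed to 5.96 to 7.37 CPM in WT and 23.3 to 33.7 CPM in CIS-/- at 24 h. They were also higher in CIS-/- in unstimulated cells (88.6 to 89.9 against 32.1 to 34.5 CPM) and at 4 h (59.0 to 87.6 against 23.4 to 27.9 CPM), with 3 of 3 tested called higher each time. Of all genes, 12.9% were called higher in CIS-/- in unstimulated cells, 8% at 4 h and 38.2% at 24 h. The B cell list, which rested on Ighm, summed to 79.98 to 83.52 and 13.8 to 16.6 CPM. The summed neutrophil markers overlapped between genotypes at 24 h, with 26341 to 30874 CPM in CIS-/-. Of the 9 markers, however, 4 were called higher and 4 lower in CIS-/-, where 38.2% and 38.1% of all genes were. Among the 9 markers, S100a9 was higher (log2 0.50 ± 0.06) and Csf3r lower (−1.34 ± 0.03). The part of these markers in the members' differences was not tested.

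**Figure D4:**
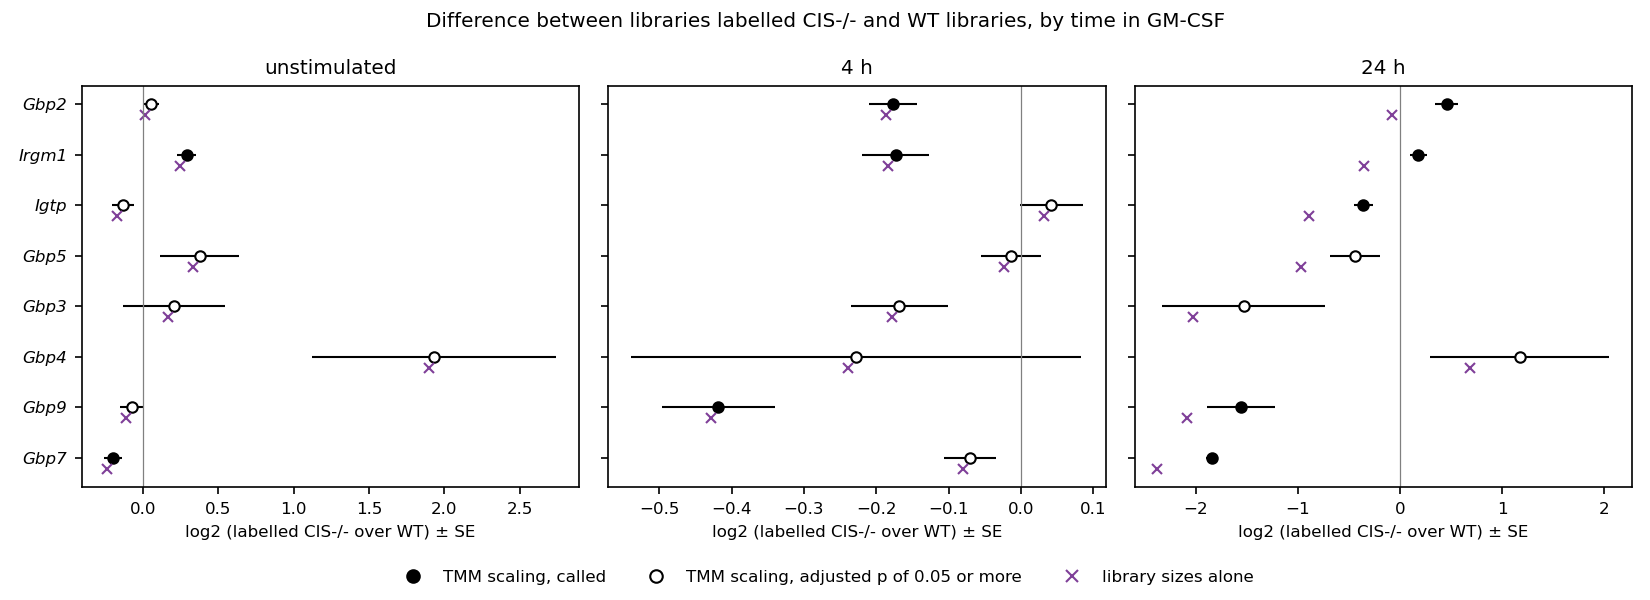
Log2 difference of CIS-/- from WT with its standard error for the 8 tested members in unstimulated cells, at 4 h and at 24 h (the panels have their own x scales); filled circles have an adjusted p below 0.05, open circles do not, and crosses give the value with library sizes alone. At 24 h Gbp7 (−1.84) and Gbp9 (−1.55) lie lowest among the members called, and the crosses of Gbp2 and Irgm1 lie left of 0 while their circles lie right of it.

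Of the 17 other immunity GTPase genes listed, 9 were tested, Gvin1 among them. At 4 h 9 of 9 were called higher in each genotype, where 38.1% of all genes were in WT and 37.9% in CIS-/-, and from 4 h to 24 h 9 of 9 were called lower, where 39.6% and 37.9% were. Gbp11 (0 unstimulated counts and 21 at 4 h in WT) and Tgtp2 (2 and 35 counts) passed the filter on low counts through the 4 h libraries, so their calls follow in part from that filter. Ifi47, an IRG also called IRG-47, went from 5.33 ± 0.57 to 164 ± 1.9 and 2.19 ± 0.17 CPM in WT, and Irgm2, also a regulatory IRG, from 49.6 ± 2.0 to 234 ± 8.2 and 54.3 ± 2.2 CPM. Gm12250, also an IRG gene, went from 0.908 to 41.0 and 0.327 CPM. At 24 h in CIS-/- libraries Irgm2 stood at 25.7 ± 0.14 CPM (log2 −1.08 ± 0.05 against WT). Irgc1 went the other way, with 5.45 CPM in WT and 10.9 CPM in CIS-/- (log2 1.03 ± 0.11). Among the 9 genes, 2 were called higher and 4 lower in CIS-/- at 24 h, where 38.2% and 38.1% of all genes were.

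Transcripts of the 8 interferon genes looked up were not seen, and other interferon genes were not examined. Ifng, Ifnb1, 4 Ifna genes, Ifnl2 and Ifnl3 had 0 counts among 288256038 counts over all libraries. Of 15 tested genes for interferon receptors and their signalling, 13 were called higher and 1 lower at 4 h in WT. Of all genes 38.1% were called higher and 38.2% lower there. The median log2 change of the 15 genes was 0.55. The feedback inhibitor Socs1 rose from 12.6 to 245 CPM (log2 4.27 ± 0.06), and the kinase Jak2, which serves both the GM-CSF and the interferon-gamma receptors, from 115 to 906 CPM (2.97 ± 0.04). Stat2 rose from 49.1 to 180 CPM (1.87 ± 0.05) and Irf9 from 114 to 262 CPM (1.21 ± 0.04). Irf1 was the gene that fell in WT, by 0.37 on the log2 scale. In CIS-/- libraries 11 of the 15 were called higher and 2 lower at 4 h, where 37.9% and 39.1% of all genes were. At 24 h Stat2 was at 55.0 CPM in CIS-/- against 47.3 CPM in WT, a difference that turned to −0.32 with library sizes alone.

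Across the 18 libraries, log2 values of single members were compared with the mean of the other members as a description of likeness. Pearson's r was 0.994 for Igtp, 0.992 for Gbp3, 0.990 for Irgm1, 0.989 for Gbp2, 0.951 for Gbp5, 0.913 for Gbp7, 0.912 for Gbp4 and 0.674 for Gbp9. Spearman's rank correlation gave another order: 0.926 for Gbp3, 0.922 for Gbp2, 0.909 for Gbp9, 0.907 for Irgm1, 0.882 for Igtp, 0.796 for Gbp4, 0.756 for Gbp5 and 0.6945 for Gbp7. Which member was least like the others thus depended on the measure. The libraries of a group share their treatment, so these values mostly reflect the 6 groups. Of 7061 other genes ranked by their likeness to the members' mean, Ifi47 came first (r = 0.996), followed by Parp9 (0.996), Rnf114 (0.994), Arl4c (0.994), Trafd1 (0.993), Gm12250 (0.993), Znfx1 (0.992) and Parp12 (0.991). Parp9, an ADP-ribosyltransferase family gene, went from 41.7 ± 3.8 to 165 ± 5.2 and 27.5 ± 1.1 CPM in WT.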

How the data were processed

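Stranded RNA libraries were prepared from sorted neutrophils, per the labels' protocols. The authors deposited raw counts per gene for 18 libraries; Trimmomatic, STAR, featureCounts and mm10 are named in the submitters' processing notes, while their versions, the strand setting and the annotation release were not given in the sources used here. Genes were named by Ensembl ID from GENCODE M21 (53274 of 53379 matched; counts without a name were 0.0238%). Genes with low counts were removed with edgeR's filterByExpr, which kept 11569 genes and 99.9% of counts. Differences were tested with edgeR 4.0.16 (TMM, glmQLFit with robust estimation, all 6 groups in one fit), with Benjamini-Hochberg adjustment over all genes tested and a threshold of 0.05. The standard error is the log2 change divided by the square root of the F value. Alternatives were DESeq2 1.42.0, limma-voom (limma 3.58.1), other scalings and filters, sums of overlapping genes, and leaving out each library. Ratios resting on few counts carry exact 95% intervals, which cover counting error only. Replicates differed by more than sampling noise (chi-square per degree of freedom 1.28 to 8.46), so none was counted as a repeat run of the same library. This cannot tell separate mice from libraries of a shared pool. The common coefficient of variation between replicates, beyond counting noise, was 3.3%. The members and gene lists were chosen with earlier results of these data known. Genes named outside the members were, per list, the 4 with the smallest adjusted p at 4 h in WT, and the 8 most like the members' mean. Irf1 and the genes of the marker lists were named in addition after their values were seen. Some items are not reported here. The scripts were tested on simulated data.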

Additional observations from a re-analysis of the deposited data

Results flagged for a closer look

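The change with time differed between genotypes by the interaction test (edgeR's quasi-likelihood test) in 11 results for the members, given as the log2 change in CIS-/- minus that in WT. From unstimulated to 4 h these were Irgm1 at −0.46, Gbp9 at −0.35 and Gbp2 at −0.23. Of all genes, 10.4% had a negative call there and 5.32% a positive one. From 4 h to 24 h they were Gbp7 at −1.77, Gbp9 at −1.14, Igtp at −0.40, Gbp2 at 0.63 and Irgm1 at 0.35. Negative calls were made for 32.1% of all genes and positive ones for 33.9%. From unstimulated to 24 h they were Gbp7 at −1.64, Gbp9 at −1.48 and Gbp2 at 0.40, where 33.1% of all genes had a negative and 31.6% a positive call. For the last 2 spans the share of members called was not above that of all genes. Groups of 3 libraries were too small for the check on single samples far from the others in a gene's value. Over all genes, replicate 1 of CIS-/- at 24 h differed most from its group (chi-square per degree of freedom 6.82 and 8.46, against 1.28 to 2.90 for the other pairs of replicates).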

How the results depend on the processing

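Of 1586 alternative values for 96 member results, 1530 kept their side of the threshold without a called value turning, 19 lost the call, 33 gained one and 4 called values turned. A further 11 values changed sign where no call had been made. The scaling had the widest reach: WT libraries at 24 h had TMM factors of 1.28 to 1.29 and CIS-/- libraries 0.884 to 0.894. With library sizes alone, the turned values were, for CIS-/- against WT at 24 h, Gbp2 −0.08, Irgm1 −0.35, Jak2 −0.43, Socs1 −0.26 and Stat2 −0.32; for the interaction from 4 h to 24 h, Irgm1 −0.17, Socs1 −0.52 and Stat2 −0.12; for that from unstimulated to 24 h, Gbp2 −0.092, Jak2 −0.36 and Stat2 −0.16; for WT 24 h against 4 h, Sqstm1 0.20, Gabarapl1 0.055 and Nlrp3 0.14; and for WT 24 h against unstimulated, Stat2 0.25. Member counts under this scaling were 2 higher for WT 24 h against unstimulated, 0 higher and 6 lower between genotypes at 24 h, 0 and 5 for the interaction from 4 h to 24 h, and 0 and 6 for that from unstimulated to 24 h. In the same order, 9516, 9557, 8401 and 8206 of the 11569 genes were called in either direction under this scaling. The medians of all genes were 0.36, −0.55, −0.53 and −0.51, so most genes shifted along with the members.

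Between genotypes at 24 h, 1 member was higher with no filter and 1 with just the compared groups in the fit. With limma-voom 2 were higher in unstimulated cells, and with just the compared groups in the fit 1 was higher for the interaction from unstimulated to 4 h. Leaving out each library gave 1 to 2 higher and 3 to 4 lower at 24 h, 1 to 3 lower for the interaction from unstimulated to 4 h, and 0 to 1 higher and 2 to 5 lower for that from unstimulated to 24 h. Irgm1 at 24 h was not called with no filter (adjusted p = 0.179). The cause was not tested.

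Replicate numbers did not pair the libraries: over 45 same-numbered pairs the correlation of deviations ran from −0.0775 to 0.065, and 3 of 18 libraries were closest to their own number. The replicate block changed 0 of 96 member calls (8 members higher at 4 h in WT; Gbp7 at −1.84 at 24 h). Gbp6 and Iigp1 could not be tested at this depth, and sums of GBP genes chosen by protein identity were not run.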

Other observations

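Genes for proteins that act with GBPs and IRGs (autophagy adaptors, ubiquitin-like proteins and inflammasome components, 19 tested) moved in both directions. In WT at 4 h, 13 were called higher, 2 lower and 4 were not called, with a median log2 change of 0.52. Of all genes 38.1% were called higher and 38.2% lower there. From 4 h to 24 h, 15 were lower and 3 higher in WT, where 39.6% and 35.7% of all genes were, while 6 were lower and 9 higher in CIS-/- libraries, where 37.9% and 37.8% of all genes were. At 24 h, 12 of the 19 were called higher and 6 lower in CIS-/- than in WT (edgeR's quasi-likelihood test), with a median of 0.48. Of all genes 38.2% were called higher and 38.1% lower in that comparison.

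Sqstm1, which encodes the autophagy receptor p62, stood at 184 CPM in unstimulated WT, 745 CPM at 4 h and 613 CPM at 24 h. In CIS-/- libraries it stood at 228, 704 and 5156 ± 170 CPM (SD, n = 3), a log2 difference of 3.07 ± 0.03 SE at 24 h. Gabarapl1, a ubiquitin-like protein of autophagosome membranes, stood at 71.0 CPM in WT and 345 ± 22 CPM in CIS-/- at 24 h (log2 2.28 ± 0.04). Nlrp3, the inflammasome sensor, stood at 401 and 998.8 CPM (1.32 ± 0.03). Pycard, which encodes the inflammasome adaptor ASC, was lower in CIS-/-, with 152 against 225 CPM (log2 −0.57 ± 0.04).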
